A study of Mus musculus with 16 samples.

Results

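Broad distal accessible domains were defined as nuclear rows of the peak table that were at least 2500 bp wide (end minus start) and whose midpoint lay 10 to 200 kb from the nearest transcription start site of a protein-coding gene. They were chosen by width and position alone. No comparison between groups entered the choice, but the width itself came from peaks called on these libraries and merged, so that signal helped to decide which rows were wide. The rule found 2392 domains among 136630 nuclear peaks (1.75%). Accessibility had been measured by ATAC-seq, in which a transposase inserts sequencing adapters into open chromatin, in tumor cells of the KC-shSmad4 model of pancreatic ductal adenocarcinoma. These mouse cells carry a hairpin RNA that silences Smad4 under doxycycline (Dox). Smad4 is thus off on Dox and comes back on, from the cell's own gene, once Dox is withdrawn. The model has Cre under Ptf1a, the reporter mKate2 with the rtTA3 transactivator, and the GFP-linked hairpin at Col1a1. Tumor-derived cells had been transplanted into athymic nude hosts of 6 to 8 weeks of age, which lack T cells. They were placed in the tail of the pancreas (Panc), in the spleen with later splenectomy for tumors of the liver (Liv), or in the tail vein for tumors of the lungs (Lung). Hosts of the 3 OFF groups were fed Dox throughout, and hosts of the 3 ON groups lost Dox for the final 14 days, starting 4 weeks after transplantation for pancreas tumors, 5 weeks for liver tumors and 6 weeks for lung tumors. From each mouse, 60000 cells carrying the mKate2 reporter were sorted. Panc_OFF, Panc_ON, Lung_OFF and Lung_ON had n = 3 mice each, and Liv_OFF and Liv_ON had n = 2 each. The organ cannot be told apart from the route of injection and the time of growth.

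Chromatin that is open over several kilobases away from start sites usually holds clusters of regulatory elements bound by many transcription factors. In epithelial tumors, factors such as KLF, HNF and GATA proteins open elements of epithelial genes, whereas AP-1, RUNX and TEAD factors are known for elements of stress, migration and matrix genes. SMAD4 carries TGF-beta and BMP signals to such elements together with these partners. A domain is named here by the protein-coding gene with the nearest start site, which need not be the gene that it regulates.

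To show the sequence beside the accessibility, windows of 200 bases are given from 6 domains with the smallest p-values between liver and lungs with Smad4 off. The first 3 were more open in the liver and the last 3 less open there. Each window is the stretch of its domain with the most motif matches, on the forward strand of GRCm38 (mm10), and capitals mark the matches to motifs that are spelled out with the results on sequence. The window of Rnf220, in an intron, holds 2 GATA matches and 1 KLF match. That of Cdc25a, between genes, holds 3 GATA matches and 1 AP-1 match, and that of Efhd2, in an intron, 1 match each for ETS, HNF4 and KLF. The window of Tiam2, in an intron, holds 1 RUNX match, that of Chn1, between genes, 2 AP-1 matches, and that of Cd44, in an intron, 2 GATA matches.
Rnf220 domain, chr4:117304148-117304347: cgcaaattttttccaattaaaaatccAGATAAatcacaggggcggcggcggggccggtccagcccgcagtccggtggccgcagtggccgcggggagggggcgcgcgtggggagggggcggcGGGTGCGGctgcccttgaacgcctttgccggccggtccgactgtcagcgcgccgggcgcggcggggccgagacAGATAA
Cdc25a domain, chr9:109897163-109897362: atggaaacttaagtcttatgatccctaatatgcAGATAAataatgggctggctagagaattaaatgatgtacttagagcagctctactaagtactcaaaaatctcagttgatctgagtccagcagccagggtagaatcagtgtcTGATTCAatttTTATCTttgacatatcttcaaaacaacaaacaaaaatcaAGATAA
Efhd2 domain, chr4:141860604-141860803: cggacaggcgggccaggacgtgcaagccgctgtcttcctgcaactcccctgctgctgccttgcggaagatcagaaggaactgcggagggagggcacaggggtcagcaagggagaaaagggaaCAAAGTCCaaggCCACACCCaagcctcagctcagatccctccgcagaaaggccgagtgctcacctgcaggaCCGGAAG
Tiam2 domain, chr17:3441283-3441482: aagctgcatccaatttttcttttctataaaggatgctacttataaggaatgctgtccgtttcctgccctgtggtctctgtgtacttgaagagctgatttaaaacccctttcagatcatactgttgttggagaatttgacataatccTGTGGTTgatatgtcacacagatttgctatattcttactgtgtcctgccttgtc
Chn1 domain, chr2:73609075-73609274: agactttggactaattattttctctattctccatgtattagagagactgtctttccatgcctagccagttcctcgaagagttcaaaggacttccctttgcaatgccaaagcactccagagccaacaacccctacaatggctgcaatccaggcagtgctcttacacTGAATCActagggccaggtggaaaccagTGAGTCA
Cd44 domain, chr2:102870885-102871084: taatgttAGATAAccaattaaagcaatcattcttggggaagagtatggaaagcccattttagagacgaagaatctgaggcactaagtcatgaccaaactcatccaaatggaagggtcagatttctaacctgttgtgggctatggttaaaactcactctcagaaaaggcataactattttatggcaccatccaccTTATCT

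Broad distal domains also held microRNA genes, and the mature sequences of those described below are shown with the seed (bases 2 to 8, which select the target) in capitals. They were taken from RefSeq (GRCm38.p6), which had a mature sequence for each of the 18 named microRNA genes that start in a domain. The 12 domains with these genes gave 34 mature sequences with 30 seeds. The 5p forms of let-7b, let-7c and let-7i shared 1 seed. Other seeds were shared by the 3p forms of let-7b and let-7c-2, and by those of miR-29a and miR-29b.
mmu-miR-192-5p: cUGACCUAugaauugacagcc
mmu-miR-194-5p: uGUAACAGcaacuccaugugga
mmu-miR-203-3p: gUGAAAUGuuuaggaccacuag
mmu-miR-199b-3p: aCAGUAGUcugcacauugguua
mmu-miR-21a-5p: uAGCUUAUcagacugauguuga
mmu-miR-29a-3p: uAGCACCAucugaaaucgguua
mmu-miR-29b-3p: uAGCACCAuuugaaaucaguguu
mmu-let-7b-5p: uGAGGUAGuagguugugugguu
mmu-let-7c-5p: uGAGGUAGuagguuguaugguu
mmu-let-7i-5p: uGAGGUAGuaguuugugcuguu

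Nuclear peaks held 22.5 to 37.5 megareads per library, and the domains took 8.14% to 9.33% of the normalized counts of a library. The median domain had a mean normalized count of 921, against 57.5 for all nuclear peaks, so that counting error was smaller in the domains. Their median SD within a group was 0.12 to 0.23 on the log2 scale, against 0.25 to 0.44 for all peaks, and it was largest in Lung_OFF in both. Accessibility does not read the Smad4 transcript that the hairpin acts on. The domain beside Col1a1, where the Dox-driven hairpin was placed, was lower in each ON library than in each OFF library of the same organ (values below), so that it separated the libraries by their Dox labels. Promoter peaks of the tumor epithelium markers Epcam, Cdh1, Krt7, Krt8, Krt18 and Krt19 were present for 6 of 6 genes, and their summed level per kilobase was 1142 to 1327 in Panc_OFF, 3082 to 3087 in Liv_OFF and 1260 to 1875 in Lung_OFF. Of 8 hepatocyte markers, 1 (Ttr) had a promoter peak, with 104 to 146 normalized counts per kilobase in Liv_OFF, 50.2 to 61.0 in Panc_OFF and 33.2 to 61.1 in Lung_OFF. Of 8 leukocyte markers 2 had a promoter peak, and Ptprc, which defines leukocytes, had none. Their sum was 578 to 1028 in Liv_OFF, 332 to 425 in Panc_OFF and 465 to 583 in Lung_OFF. The 2 went opposite ways by group mean. Cd68 was highest in Liv_OFF (746, against 293 in Panc_OFF and 426 in Lung_OFF), whereas Csf1r was lowest there (56.6, against 98.4 and 106). The part of other cells in the liver-high domains was not tested. Library 1 of Lung_OFF stood apart on the distal end of chromosome 6, where 96 domains (4.01%, against 1.76% of all peaks) had a median deviation of 1.68 (log2) from their mean over libraries in that library. In the other 15 libraries this deviation was -0.53 to 0.56.

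The domains had a median width of 3147 bp (quartiles 2769 and 3851 bp) and together covered 8.89 Mb. By width, 982 were under 3000 bp, 1171 from there to under 5000 bp, 208 from 5000 bp to under 10000 bp and 31 wider than that. Their midpoints lay a median of 34.2 kb from the start site of the nearest gene, with 1195 in introns, 1156 between genes and 41 in exons. In 5 of the 11 domains wider than 20 kb, those of Pmepa1, Csrp1, Ezr, Gprc5a and Cdh1, the interval itself reached the start site although the midpoint did not. No other domain did. Start sites of other gene types were closer for many, and 709 domains had a start of any gene type within 10 kb. At the limit of the rule, the narrowest domains included were nearest Socs3 and Tcim (2500 bp) and Lpp (2501 bp), and the widest distal peaks left out were nearest Casp8, Moxd1 and Myc (2499 bp).

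Compared with distal peaks under 2500 bp, the domains had a median of 275 normalized counts per kilobase against 91.2, which is given without a test because signal bears on width. Broad peaks within 10 kb of a start site reached 425. Median GC content was 47.1%, against 45.2% in narrower distal peaks and 52.9% in broad peaks near start sites. The ratio of observed to expected CpG was 0.219, far from the 0.522 of broad peaks near start sites. In base composition the domains lay closer to narrower distal peaks than to broad peaks near start sites. Soft-masked repeats took a median of 17.3% of a domain, and 148 domains were either over 50% masked or under 50 normalized counts per kilobase.

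The widest domain, nearest Gas8 on chr8:123537296-123624329, spanned 87033 bp, was 79.8% masked and had 21.9 normalized counts per kilobase. The next widest, nearest Frmd8, had 670 per kilobase over 36901 bp and holds the start of Neat1, a long noncoding RNA that builds paraspeckles. Its normalized counts ranged from 18554 to 29959 over the 16 libraries and it was called in none of the 10 comparisons between organs or on restoration. Pmepa1, a feedback inhibitor of TGF-beta signaling, lay under a domain of 34990 bp with 10433 to 19360 normalized counts and no call in these comparisons. The domain of 36332 bp nearest Ezh2, the methyltransferase of the Polycomb complex, had 2113 to 3738 and likewise no call. Of the 10 widest domains, Csrp1 (24764 bp) and Cdh1 (22337 bp) were called between Liv_OFF and Lung_OFF, both higher in the liver. The others with a call were both of Ezr (0.63, log2, for Lung_ON minus Panc_ON and 0.59 for Liv_OFF minus Panc_OFF), Gprc5a (0.76 in Liv_OFF and 0.90 in Lung_OFF over Panc_OFF) and Atg7 (-0.91 for Liv_OFF minus Panc_OFF). The Gprc5a domain lies on the stretch of chromosome 6 where Lung_OFF library 1 stood apart. Its normalized counts of 12464, 9116 and 4893 in Lung_OFF overlapped with 5902, 3574 and 4017 in Panc_OFF. The part of library 1 in this call was not tested.

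The domains were nearest to 1623 genes, of which 442 had more than 1 domain and 82 had at least 4. Klf14, a KLF transcription factor gene, had 9 domains within 89.8 kb on chromosome 6, of which domains made up 46.6 kb. The first of these holds Mir29a and Mir29b-1. Clic4 and Cmip had 7 domains each. Atg7 (8 domains), Sfi1 (7), Gm15319 (12) and Gm21119 (9) stood out by repeats or low signal, with a median of 76.5%, 32.9%, 25.9% and 33.5% masked bases and 38.1, 58.8, 24.9 and 16.5 normalized counts per kilobase. Eps8 had 7 domains, all on the stretch of chromosome 6 where Lung_OFF library 1 stood apart, and 5 of them were called higher in Lung_OFF than in Panc_OFF. The widest of these, of 7959 bp, had 4751, 2774 and 1835 normalized counts in Lung_OFF and 1610, 949 and 1070 in Panc_OFF. Library 1 was the highest of Lung_OFF in each of the 7, and its part in these calls was not tested.

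To ask where broad domains differed between organs with Smad4 off, each pair of organs was compared with limma on log2(normalized count + 1), fitted over all nuclear peaks with Benjamini-Hochberg adjustment. A domain was called where its adjusted p was 0.1 or less and its log2 fold change was 0.58 or more in either direction. Between Liv_OFF and Lung_OFF, 1073 domains (44.9%) were called, against 49.7% of all peaks. More open in the liver were 618 (25.8%, against 22.9% of all peaks), and less open there were 455 (19.0%, against 26.8%). Between Liv_OFF and Panc_OFF, 1239 domains (51.8%, against 58.5%) were called, 813 higher (34.0%, against 26.2%) and 426 lower (17.8%, against 32.3%) in the liver. Between Lung_OFF and Panc_OFF, 265 (11.1%, against 17.3%) were called, 179 higher (7.48%, against 6.59%) and 86 lower (3.60%, against 10.7%) in the lungs. The 3 comparisons share libraries.

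The balance between higher and lower calls depended on the scaling of the libraries. With quantile normalization, 353 domains were higher and 621 lower in Liv_OFF than in Lung_OFF, so that 36.2% of calls were higher in place of 57.6%. Against Panc_OFF these numbers were 481 and 595 (44.7% in place of 65.6%), and 58.1% in place of 67.5% of calls were higher in Lung_OFF than in Panc_OFF. The median over domains was 0.16 (log2) for Liv_OFF minus Lung_OFF and 0.29 for Liv_OFF minus Panc_OFF, and it was -0.14 and -0.06 after quantile normalization. With TMM factors 528 were higher and 491 lower between liver and lungs, and the median of all peaks shifted to -0.14 between liver and pancreas. Between liver and either other organ with Smad4 off, the balance of calls thus changed side with the scaling, whereas between lungs and pancreas higher calls stayed the larger part. Of 43 named differences recomputed under alternatives, none changed sign. These had been picked by the smallest p-values between organs or on restoration, and the other named domains were not recomputed.

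**Figure D1:**
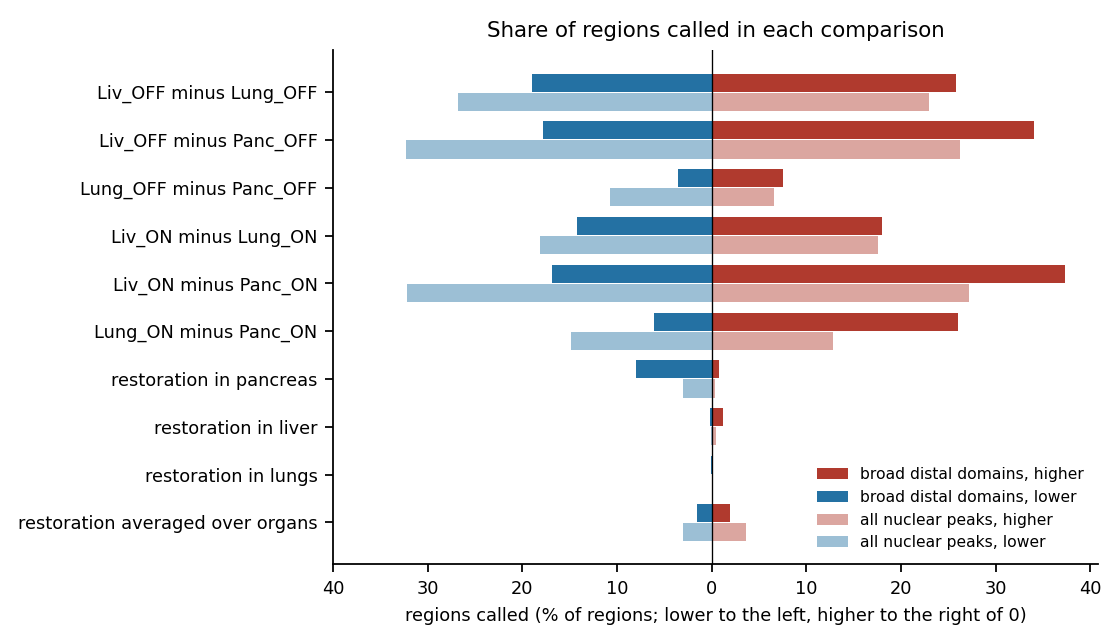
Horizontal bars give the percentage of regions called higher (right of 0) and lower (left of 0) in each of 10 comparisons, for the 2392 broad distal domains (dark bars) and for all 136630 nuclear peaks (pale bars). The domains have the longer right bar between Liv_OFF and Panc_OFF (34.0% against 26.2%) and the longer left bar on restoration in the pancreas (8.03% against 3.06%).

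Domains near epithelial genes were then counted. Of 41 epithelial, ductal and gastric genes in a list, 15 were nearest to a domain, and of their 24 domains 19 were higher and none lower in Liv_OFF than in Lung_OFF, with a median of 0.85 (log2) beside 0.16 over all domains, of which 25.8% were higher and 19.0% lower. Against Panc_OFF, 22 were higher and none lower, with a median of 1.18 beside 0.29 over all domains, of which 34.0% were higher and 17.8% lower. Among the genes of endoderm and pancreatic lineage factors, 4 of 10 domains were higher in the liver than in the lungs and 5 of 10 than in the pancreas, with none lower. Over all domains these shares were 25.8% and 34.0% higher, and 19.0% and 17.8% lower. The list of epithelial genes overlaps with the marker genes of the tumor cells, and its members were chosen with results of these data known.

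The domain of 22337 bp over the start of Cdh1, the gene for E-cadherin, lay on chr8:106602952-106625289. Its normalized counts were 11310 and 10785 in Liv_OFF, 4517, 7847 and 5762 in Lung_OFF and 5554, 5390 and 4615 in Panc_OFF. With Smad4 restored they were 8424 and 10742 in Liv_ON, 6231, 7341 and 6635 in Lung_ON and 3525, 3309 and 4060 in Panc_ON. Both Liv_OFF libraries lay above every library of the other organs, and the pancreas ON libraries were the lowest. Liv_OFF exceeded Lung_OFF by 0.91 ± 0.16 (log2, SE; limma adjusted p = 0.000498) and Panc_OFF by 1.10 ± 0.16 (adjusted p = 7.72e-05).

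Krt8, which encodes an epithelial keratin, had a domain of 5544 bp upstream on chr15:102013046-102018590. Its normalized counts were 7827 and 8850 in Liv_OFF, 3779, 5536 and 4534 in Lung_OFF and 4062, 3744 and 3510 in Panc_OFF. In the ON groups they were 6322 and 7810 in Liv_ON, 4748, 5035 and 4471 in Lung_ON and 2959, 2504 and 3258 in Panc_ON. The liver libraries, OFF and ON, were the 4 highest. The difference of Liv_OFF was 0.87 ± 0.14 (log2, SE; limma adjusted p = 0.000193) from Lung_OFF and 1.14 ± 0.14 (adjusted p = 1.63e-05) from Panc_OFF.

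Cldn3, which encodes a claudin of tight junctions, showed a wider gap over 2665 bp upstream of the gene. Normalized counts were 2452 and 3666 in Liv_OFF, 447, 859 and 514 in Lung_OFF and 348, 453 and 344 in Panc_OFF. Liver and other libraries did not overlap, and the ON libraries of the liver (2334 and 3651) overlapped with the OFF ones. The difference from Lung_OFF was 2.36 ± 0.26 (log2, SE; limma adjusted p = 2.31e-05).

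Among domains whose libraries did not overlap, the 4 with the smallest p-values for a more open state in Liv_OFF than in Lung_OFF were nearest Rnf220, Cdc25a, Efhd2 and Stpg1. Rnf220 encodes a ubiquitin ligase, and its intronic domain had 985 and 942 normalized counts in Liv_OFF against 174, 243 and 171 in Lung_OFF (2.31 ± 0.20, log2, SE; limma adjusted p = 9.06e-06). Efhd2 encodes a calcium-binding protein, and its intronic domain (chr4:141859889-141864095) had 1656 and 1789 in Liv_OFF, 587, 494 and 364 in Lung_OFF and 178, 269 and 214 in Panc_OFF. The 3 organs did not overlap, in the order liver, lungs, pancreas. The steps were 1.86 ± 0.20 (log2, SE; adjusted p = 1.92e-05) from lungs to liver and 1.12 ± 0.18 (adjusted p = 0.00117) from pancreas to lungs. Stpg1 exceeded Lung_OFF by 2.75 and Cdc25a, the phosphatase gene of cell cycle entry, by 1.52 (log2).

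Among the lineage factors, domains near Gata4 and Foxa2, factors of endoderm, were 0.82 (log2) higher each in Liv_OFF than in Lung_OFF, whereas the other 2 domains of Foxa2 differed by 0.46 and -0.11 and were not called.

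**Figure D2:**
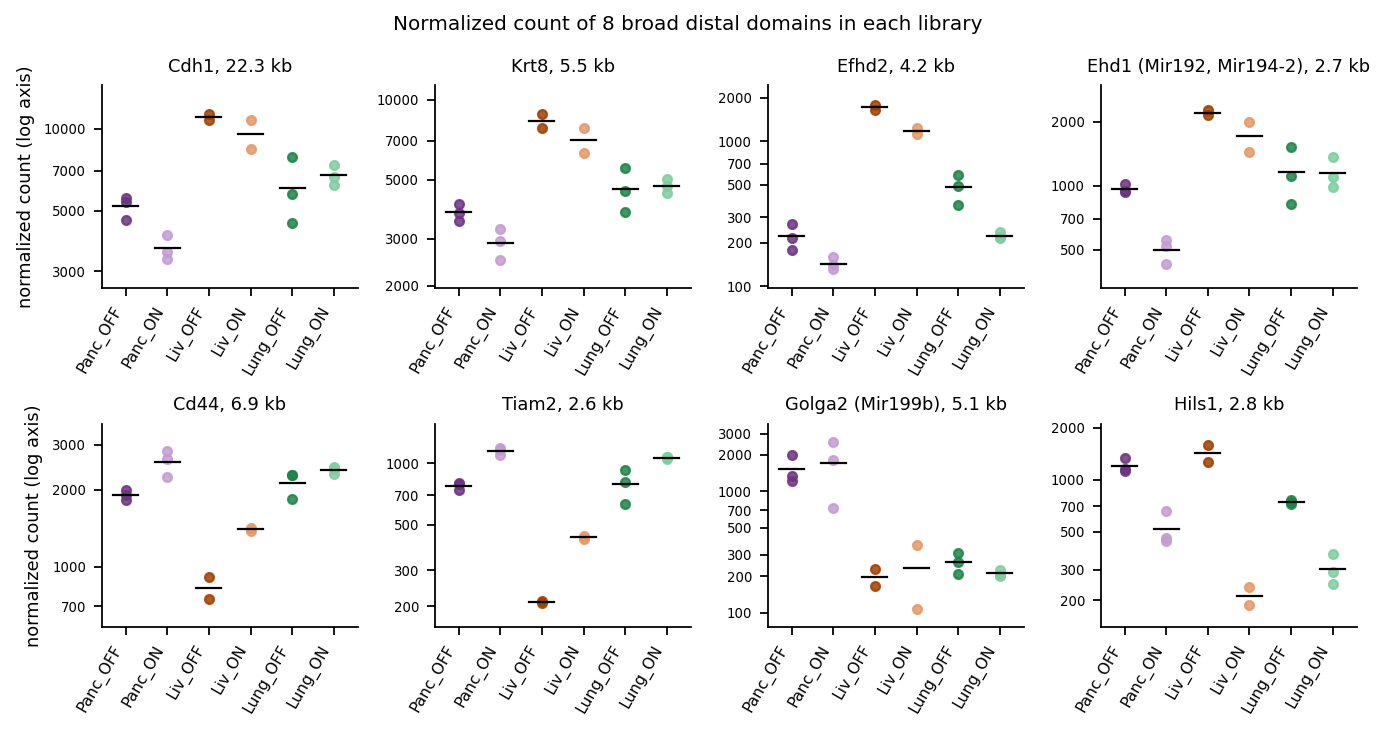
Normalized count (log axis) of 8 domains in each library, with 1 point per mouse and a horizontal line at the group mean, for the 6 groups by organ and Smad4 state. Cdh1, Krt8, Efhd2 and Ehd1 are highest in Liv_OFF, Cd44 and Tiam2 are lowest there, Golga2 is high in the pancreas groups only, and Hils1 is lower in every ON library than in the OFF libraries of the same organ and lies beside Col1a1, the locus of the Dox-driven hairpin.

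Among domains whose libraries did not overlap, the 4 with the smallest p-values for a less open state in Liv_OFF than in Lung_OFF were nearest Tiam2, an exchange factor for Rac, Chn1, a GTPase-activating protein for Rac, Cd44, the hyaluronan receptor, and Sh3pxd2b, an adaptor of podosomes. Of 24 domains of matrix and adhesion genes, 8 were lower and 4 higher in Liv_OFF than in Lung_OFF, with a median of -0.10 (log2) beside 0.16 over all domains (19.0% lower and 25.8% higher). Against Panc_OFF, 6 of these 24 domains were lower and 7 higher, beside 17.8% lower and 34.0% higher over all domains. Summed endothelial marker promoters (322 to 330 per kilobase in Liv_OFF, 477 to 926 in Lung_OFF) and those of fibroblasts and stellate cells (834 to 877 and 989 to 1431) were also lower in Liv_OFF. Single markers went the other way, with group means in Liv_OFF and Lung_OFF of 109 and 63.7 for Tie1, 13.8 and 7.70 for Col1a2 and 18.6 and 5.51 for Lum. The part of these cells was not tested.

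The Tiam2 domain (chr17:3441283-3443842), in an intron, had normalized counts of 209 and 213 in Liv_OFF, 806, 636 and 929 in Lung_OFF and 793, 806 and 738 in Panc_OFF. With Smad4 restored they were 440 and 429 in Liv_ON, 1052, 1073 and 1071 in Lung_ON and 1093, 1155 and 1192 in Panc_ON. The liver libraries were the lowest in both states, and lungs and pancreas overlapped with Smad4 off. The difference between Liv_OFF and Lung_OFF was -1.88 ± 0.13 (log2, SE; limma adjusted p = 5.90e-06). Chn1 differed by -2.22 ± 0.17 (adjusted p = 5.90e-06), with 248 and 223 normalized counts in Liv_OFF against 1023, 1088 and 1199 in Lung_OFF.

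Cd44 had 6 domains, which did not move together. Its widest, an intronic domain of 6867 bp (chr2:102870529-102877396), had 748 and 911 normalized counts in Liv_OFF, 2278, 1842 and 2272 in Lung_OFF and 1822, 2001 and 1913 in Panc_OFF. Liver libraries did not overlap with those of the other organs, and Liv_OFF was -1.36 ± 0.11 (log2, SE; limma adjusted p = 9.03e-06) from Lung_OFF. A further 3 domains of Cd44 were lower in the liver, by -1.19, -1.11 and -2.04. The last of these rested on uneven lung libraries with 774, 226 and 463 normalized counts. The other 2 differed by 0.28 and -0.01 and were not called, and the one of 5275 bp was 0.62 (adjusted p = 0.000721) higher in Liv_OFF than in Panc_OFF.

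Genes with several domains were counted by the direction of their calls. With Smad4 off, 138 genes had at least 2 domains called between liver and lungs, of which 62 had all called domains higher in the liver, 38 all lower, and 38 both directions. Between liver and pancreas, 172 genes had at least 2 called domains, with 101, 27 and 44 in these classes. Tcf7l2, the Wnt effector, had 2 domains higher and 2 lower in the liver in both comparisons, and Cmip had 1 higher and 3 lower of 7. Egfr and Vegfa had 1 domain in each direction between liver and lungs, and Runx1 had 1 in each direction of 5 between liver and pancreas. These genes were chosen after their values were seen. Between lungs and pancreas, 13 of 16 such genes had all called domains higher in the lungs, 3 all lower, and none both directions. Eps8 was among the 13, with 5 called domains on the stretch of chromosome 6 where Lung_OFF library 1 stood apart. The part of library 1 in this count was not tested. Over all domains, 7.48% were called higher and 3.60% lower in the lungs (6.59% and 10.7% of all peaks).

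Within the TGF-beta and BMP pathway, 14 of 48 genes had a domain. Of their 32 domains, 6 were higher and 3 lower in Liv_OFF than in Lung_OFF, and 9 higher and 6 lower than in Panc_OFF, with medians of 0.06 and 0.15 (log2) beside 0.16 and 0.29 over all domains. Of all domains, 25.8% were higher and 19.0% lower in Liv_OFF than in Lung_OFF, and 34.0% and 17.8% than in Panc_OFF. Nothing is read from counts near these shares. Smad1, a receptor-regulated SMAD of the BMP branch, had a domain of 5760 bp with 2366 and 1977 normalized counts in Liv_OFF, 1056, 1224 and 979 in Lung_OFF and 793, 730 and 684 in Panc_OFF. The organs did not overlap, and Liv_OFF exceeded Panc_OFF by 1.56 ± 0.14 (log2, SE; limma adjusted p = 5.06e-06). Its second domain differed by -0.63 (log2) between Liv_OFF and Panc_OFF and was called as well. The widest domain of Smad3, its counterpart in the TGF-beta branch, differed between liver and lungs by -0.05 (limma adjusted p = 0.680).

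In the other lists, calls stand beside 25.8% higher and 19.0% lower over all domains, and nothing is read from counts near these shares. KLF factor genes had 19 domains, with 4 higher and 3 lower between Liv_OFF and Lung_OFF. Of the 9 domains of Klf14, 1 was called (1.14 higher in the liver, log2), and a Klf6 domain differed by -1.65. RUNX factors and their cofactor had 6 domains (1 higher, none lower), AP-1 subunits 4 (1 higher, none lower) and SOX factors 1 (no call). Receptor kinases, MAPK output and Myc had 34 (5 higher, 5 lower), Wnt, Notch and Hedgehog 23 (5 higher, 5 lower), and YAP and TEAD genes 10 (2 higher, 3 lower). Of 20 genes of EMT and mesenchyme, 2 had a domain, and the one of Zeb1, a repressor of Cdh1, differed by -1.06 (log2) between Liv_OFF and Lung_OFF and was called.

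**Figure D3:**
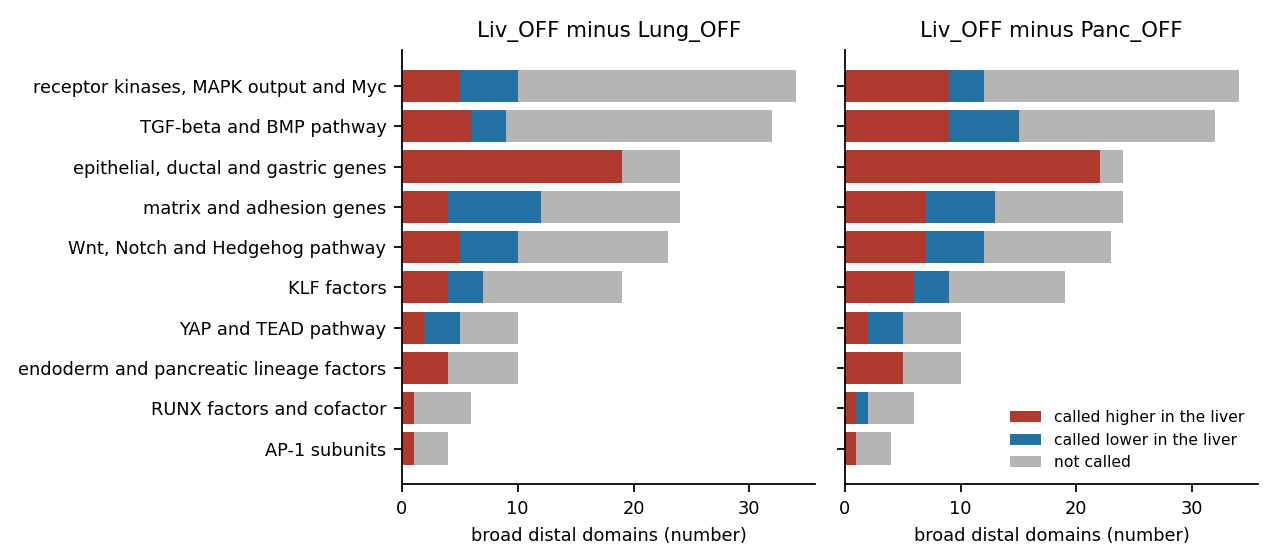
Bars count the domains of 10 gene lists with at least 4 domains, split into those called higher in the liver (red), called lower in the liver (blue) and not called (gray), for Liv_OFF against Lung_OFF (left) and against Panc_OFF (right). Epithelial, ductal and gastric genes have 19 and 22 of 24 domains in red and none in blue, whereas the lists of matrix and adhesion genes and of the TGF-beta and BMP pathway have both colors.

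Domains were also classed by the organ that stood apart with Smad4 off. A domain was called pancreas-high when it was higher in Panc_OFF than in both other organs, and 68 domains (2.84%) were, against 9.27% of all peaks. Liver-high domains were 562 (23.5%, against 19.8%) and liver-low domains 337 (14.1%, against 20.8%). Pancreas-low domains were 102 (4.26%, against 3.57%), lung-high 53 (2.22%, against 2.33%) and lung-low 10 (0.418%, against 1.15%). No comparison was called in 947 domains (39.6%, against 31.3% of all peaks). With quantile normalization, 309 domains were liver-high.

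Mir199b, inside a domain of 5111 bp in an intron of Dnm1 (nearest start Golga2), was chosen after its values were seen. The domain was among those higher in the pancreas, and its normalized counts were 1211, 1351 and 2004 in Panc_OFF and 2573, 1810 and 734 in Panc_ON, against 227 and 167 in Liv_OFF and 260, 209 and 313 in Lung_OFF. No pancreas library overlapped with another organ, and Panc_ON library 3 was the lowest of the pancreas libraries. Lung_OFF minus Panc_OFF was -2.53 ± 0.41 (log2, SE; limma adjusted p = 0.00122) relative to it. Domains near Coro6 (-1.98), Ttc23l (-2.66) and En1 (-1.89) were likewise lower in Lung_OFF than in Panc_OFF.

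Promoter peaks of fibroblast and stellate cell markers moved with these domains. They were present for 7 of 7 genes, with a summed level per kilobase of 1857 to 2646 in Panc_OFF and 1661 to 3133 in Panc_ON, against 834 to 877 in Liv_OFF and 989 to 1431 in Lung_OFF. Lum, which encodes a proteoglycan of fibroblasts, had 173 normalized counts per kilobase in Panc_OFF, 18.6 in Liv_OFF and 5.51 in Lung_OFF. The part of other cells in the pancreas values was not tested.

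Between Lung_OFF and Panc_OFF, the domains with the smallest p-values among those higher in the lungs included Efhd2 and also Cd200, Samd5 and Ptp4a2. Cd200, a gene for a surface glycoprotein that acts on myeloid cells, had 244, 334 and 238 normalized counts in Lung_OFF and 77.7, 74.1 and 62.0 in Panc_OFF. The groups did not overlap, with a difference of 1.90 ± 0.27 (log2, SE; limma adjusted p = 0.000593), and Liv_OFF was higher still with 691 and 582. Samd5 (1.21) and Ptp4a2 (1.05) were higher in the lungs as well. Without Panc_OFF library 2 or 3, 167 and 139 domains were called in place of 265.

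Organ differences were compared again in the ON groups, which share no library with the OFF groups. Of the 618 domains higher in Liv_OFF than in Lung_OFF, 612 had the same sign and 392 (63.4%, against 67.5% of all such peaks) were called the same way in Liv_ON against Lung_ON. Of the 455 lower domains, 450 kept the sign and 293 the call (64.4%, against 56.9%). Against the pancreas, 747 of 813 higher (91.9%, against 86.6%) and 350 of 426 lower domains (82.2%, against 83.9%) were called again. Between lungs and pancreas 107 of 179 (59.8%, against 40.8%) and 60 of 86 (69.8%, against 77.5%) were. None was called in the opposite direction in any of these comparisons. In the ON groups 771 domains (32.2%, against 35.8% of all peaks) were called between liver and lungs, 413 without Liv_ON library 2, and 1298 (54.3%, against 59.4%) between liver and pancreas. Between lungs and pancreas 769 (32.1%, against 27.8%) were called, of which 623 (26.0%, against 12.8%) were higher in the lungs. With quantile normalization 41.3% in place of 55.8% of the calls between Liv_ON and Lung_ON were higher in the liver, and 56.4% in place of 68.8% between Liv_ON and Panc_ON.

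MicroRNA genes inside domains are described apart, since here the element can contain the transcript itself. These were chosen after their values were seen. A microRNA start lay in 17 domains (0.711%), against 0.0770% of narrower distal peaks and 2.12% of broad peaks near start sites, and a long noncoding RNA start lay in 158 (6.61%, against 0.987% and 14.3%). Wider regions hold more starts of any kind.

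Mir192 and Mir194-2, a pair of epithelial microRNAs transcribed together, lay in a domain of 2739 bp nearest Ehd1 (chr19:6262272-6265011). It had normalized counts of 2275 and 2140 in Liv_OFF, 818, 1527 and 1115 in Lung_OFF and 945, 1017 and 934 in Panc_OFF. With Smad4 restored the counts were 1447 and 1985 in Liv_ON, 988, 1364 and 1098 in Lung_ON and 519, 428 and 553 in Panc_ON. The liver was highest with Smad4 off, and the pancreas OFF and ON libraries did not overlap. Liv_OFF exceeded Lung_OFF by 0.98 ± 0.21 (log2, SE; limma adjusted p = 0.00136), and restoration in the pancreas changed the domain by -0.95 ± 0.18 (adjusted p = 0.0205).

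Mir203, an epithelial microRNA that targets the stem cell factor p63, lay in a domain upstream of Kif26a. Its normalized counts were 1138 and 1927 in Liv_OFF, 464, 763 and 564 in Lung_OFF and 431, 450 and 432 in Panc_OFF. The liver libraries stood above the others, by 1.34 ± 0.20 (log2, SE; limma adjusted p = 0.000161) over the lungs. Mir21a, which is abundant in many cancers, lay in a domain of 13551 bp with 9534 to 15954 normalized counts. There Liv_OFF exceeded Lung_OFF by 0.56 (adjusted p = 0.00021), below the fold needed for a call. The domain of Mirlet7b and Mirlet7c-2 was 0.64 (log2) higher in Liv_OFF than in Lung_OFF and was called, that of Mir29a and Mir29b-1 was 0.46 higher without a call, and the domain of Mirlet7i was not called.

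The effect of Smad4 restoration was then examined in each organ. In the pancreas, 209 domains (8.74%, against 3.42% of all peaks) were called between Panc_ON and Panc_OFF, of which 192 (8.03%, against 3.06%) were less open and 17 (0.711%, against 0.364%) more open after restoration. In the liver, 33 domains (1.38%, against 0.55%) were called, 29 higher (1.21%, against 0.462%) and 4 lower. In the lungs, 1 domain (0.0418%, against 0.00366%) was called. Averaged over the 3 organs, 82 domains (3.43%, against 6.62%) were called, 45 higher (1.88%, against 3.61%) and 37 lower (1.55%, against 3%). The larger counts per domain stand beside these shares, and the part of counting error in the comparison with all peaks was not tested.

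These counts depended on single libraries. In the pancreas the 209 calls were 61, 26 and 109 without Panc_OFF library 1, 2 or 3, and 86 and 70 without Panc_ON library 1 or 2. In the liver, where the lone remaining sample is assumed to vary like the other groups, the 33 calls were 1 without Liv_OFF library 1 or without Liv_ON library 1 and 75 without Liv_ON library 2. They were 67 and 73 without Lung_OFF library 1 or 2, 17, 18 and 15 without Panc_OFF library 1, 2 or 3, 20 without Panc_ON library 1, and 16 and 19 without Lung_ON library 2 or 3. The averaged count of 82 was 50 and 51 without Liv_OFF or Liv_ON library 1, and 130 and 53 without Lung_OFF library 1 or 2.

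The domain that fell in all 3 organs (chr11:94953388-94956222) began 346 bp past the end of Col1a1, the locus of the Dox-driven hairpin, and takes the name Hils1 here from the nearest start site. Dox at the transgene and Smad4 restoration cannot be told apart there. Its normalized counts in OFF and ON were 1126, 1144 and 1339 against 658, 442 and 460 in the pancreas, 1576 and 1268 against 239 and 188 in the liver, and 758, 739 and 724 against 371, 247 and 293 in the lungs. OFF and ON libraries did not overlap in any organ. Restoration changed it by -1.23 ± 0.17 (log2, SE; limma adjusted p = 0.00963) in the pancreas, -2.73 ± 0.21 (adjusted p = 5.66e-05) in the liver and -1.30 ± 0.17 (adjusted p = 0.041) in the lungs. It was the 1 domain called in the lungs, and no domain was called without Panc_OFF library 1, 2 or 3, Lung_OFF library 2 or Lung_ON library 2 or 3, against 3 without Lung_OFF library 3. Without this domain the calls on restoration were 208 in the pancreas, 32 in the liver, 0 in the lungs and 81 averaged over organs.

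Sema3f, which encodes a repulsive guidance cue, had an upstream domain that fell in the pancreas and liver. Its normalized counts were 390, 380 and 359 in Panc_OFF, 153, 167 and 126 in Panc_ON, 817 and 553 in Liv_OFF and 220 and 302 in Liv_ON. The OFF and ON libraries did not overlap in either organ. Restoration changed it by -1.34 ± 0.20 (log2, SE; limma adjusted p = 0.0103) in the pancreas, -1.38 ± 0.25 (adjusted p = 0.0447) in the liver and, without a call, -0.56 ± 0.20 (adjusted p = 0.555) in the lungs.

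Besides the domain at Col1a1, Kcnq1 and Lsm3 had the smallest p-values among the domains that fell in the pancreas. Kcnq1, a potassium channel gene, had an intronic domain with 1194, 1087 and 1034 normalized counts in Panc_OFF and 580, 525 and 542 in Panc_ON (-1.01 ± 0.14, log2, SE; limma adjusted p = 0.00963). A second domain of Cdh1, of 3836 bp in an intron, had 752, 637 and 615 in Panc_OFF and 332, 322 and 297 in Panc_ON (-1.07 ± 0.20; adjusted p = 0.0174). OFF and ON libraries of the pancreas did not overlap in either. The same Cdh1 domain had 436, 850 and 624 in Lung_OFF and 651, 884 and 817 in Lung_ON, which overlapped. A domain of Tead4, a YAP partner gene, fell by 0.99 on the log2 scale. Of the 24 domains of epithelial, ductal and gastric genes, 4 were lower and none higher after restoration in the pancreas (median -0.35, beside -0.06 over all domains, of which 8.03% were lower, against 3.06% of all peaks). Of the 32 TGF-beta and BMP pathway domains, 1 was lower and none higher, and of the 23 of Wnt, Notch and Hedgehog genes 5 were lower. Summed epithelial marker promoters, at 1142 to 1327 per kilobase in Panc_OFF and 817 to 1072 in Panc_ON, moved with these domains, and their part in the result was not tested. The marker genes are also on the epithelial list, and the Cdh1 promoter peak in this sum is itself the domain of 22337 bp. The match is therefore in part one of the same values.

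A domain near Klf6, a KLF factor gene induced by injury, went up. Its normalized counts were 634, 582 and 773 in Panc_OFF and 1303, 1056 and 1121 in Panc_ON, and 184 and 241 in Liv_OFF and 466 and 487 in Liv_ON. The groups did not overlap in these organs, whereas Lung_OFF (761, 509 and 754) and Lung_ON (785, 693 and 600) did. Restoration changed it by 0.81 ± 0.17 (log2, SE; limma adjusted p = 0.0279) in the pancreas and 1.17 ± 0.21 (adjusted p = 0.0434) in the liver.

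In the liver, the 3 domains with the smallest p-values among those that rose had been less open there than in the other organs. Both comparisons use the same Liv_OFF libraries, so that a low value in them enters both, and nothing is concluded from the match. The Tiam2 domain described above rose by 1.04 ± 0.15 (log2, SE; limma adjusted p = 0.0223) and the 6867 bp domain of Cd44 by 0.76 ± 0.13 (adjusted p = 0.0375). Osr1, a factor of mesenchymal lineages, had a domain with 101 and 222 normalized counts in Liv_OFF and 501 and 421 in Liv_ON (1.61 ± 0.27; adjusted p = 0.0381). ON libraries of the liver were above its OFF libraries in these 3 domains, yet below the OFF libraries of lungs and pancreas.

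Restoration in the pancreas was set beside the difference between liver and lungs with Smad4 off, since these comparisons share no library. Of the 618 domains higher in Liv_OFF than in Lung_OFF, 158 (25.6%) were lower after restoration in the pancreas and 1 was higher, with a median of -0.43 (log2). Of the 455 domains lower in the liver, 15 were higher and 2 lower, with a median of 0.29. Of the 1319 domains not called between liver and lungs, 32 (2.43%, against 1.70% of all such peaks) were lower and 1 higher, with a median of -0.04. Among all peaks, 9.38% of those higher in the liver were lower after restoration, and the medians were -0.28 and 0.40. The medians of the domains ranged from -0.47 to -0.39 and from 0.24 to 0.32 over all alternatives of processing and left-out libraries. The count of 158 was 43, 20 and 81 without Panc_OFF library 1, 2 or 3 and 66 and 55 without Panc_ON library 1 or 2.

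**Figure D4:**
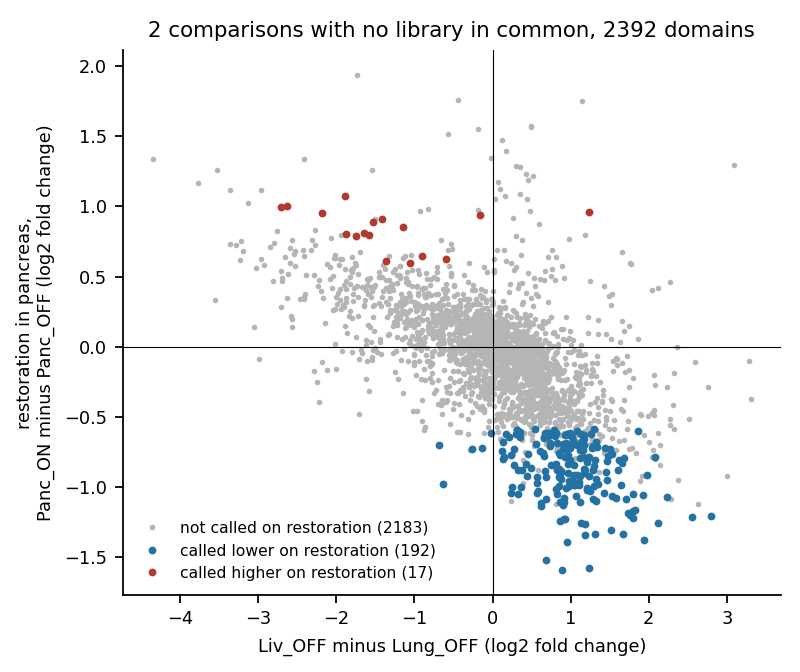
Each of the 2392 points is a domain, with the log2 fold change between Liv_OFF and Lung_OFF on the horizontal axis and that of Smad4 restoration in the pancreas on the vertical axis, colored by the call on restoration. The 192 domains called lower on restoration lie mostly to the right of 0 (158 were called higher in the liver), and 15 of the 17 called higher were called lower in the liver.

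The organs were also set side by side for restoration itself. Across the 2392 domains, log2 changes had a Pearson correlation of 0.55 between pancreas and liver (0.46 over all peaks), 0.06 between pancreas and lungs (0.03) and 0.31 between liver and lungs (0.24). These are given as descriptions, since domains of a library share its depth and composition. Of the 192 domains that fell in the pancreas, 187 were negative in the liver (median -0.35) and 98 in the lungs (median 0.00). All 29 domains that rose in the liver were positive in the pancreas (median 0.48) and in the lungs (median 0.28).

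Whether restoration acted differently between organs was tested by interaction terms. With limma, none of the 2392 domains was called for lungs minus pancreas, liver minus lungs or liver minus pancreas. At an unadjusted p below 0.05 there were 526 (22.0%, against 11.0% of all peaks), 183 (7.65%, against 5.25%) and 161 (6.73%, against 3.95%) domains, edgeR called none, and DESeq2 called 94, 1 and 3.

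The labels do not say that lung libraries of the same number belong together. The numbers were taken to pair the libraries because deviations from the group mean correlated above 0.1 in each of the 3 pairs. This choice was made from the same data that were then tested, so that adjusted p-values of the paired fit can be too small. With these numbers as a block in the lungs, 3 domains (against 0.03% of all peaks) were called on restoration in the lungs. They were nearest Hils1 (-1.30; adjusted p = 0.0377), Efhd2 (-1.08; adjusted p = 0.062) and Hsd17b12 (1.62; adjusted p = 0.077). The Efhd2 domain had 587, 494 and 364 normalized counts in Lung_OFF and 238, 217 and 215 in Lung_ON, which did not overlap. The Hils1 domain is the one beside the hairpin at Col1a1, and without it 2 domains were called. The domain of Hsd17b12, a steroid and fatty acid enzyme gene, had 137, 118 and 143 against 298, 350 and 656, likewise apart.

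For lungs minus pancreas, this paired fit called 159 domains (6.65%, against 1.75% of all peaks), 149 of which changed more positively in the lungs and 10 more negatively. Slc6a6, the taurine transporter gene, led with 1.39 (log2; limma adjusted p = 0.0155), followed by Zfp90 (1.26), Kcnq1 (1.20) and Lsm3 (1.54). The Slc6a6 domain had normalized counts of 1062, 1044 and 993 in Panc_OFF and 540, 490 and 474 in Panc_ON, and 712, 1213 and 1267 in Lung_OFF and 1067, 1222 and 1710 in Lung_ON. It fell in the pancreas without overlap, whereas the lung groups overlapped and the ON library was the higher in each of the 3 lung pairs. The 3836 bp domain of Cdh1 was also called (1.41; adjusted p = 0.0205). With the replicate block in every organ 26 domains were called, and without Lung_OFF library 2 and without the block, 223.

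The share of domains called was set out by width. Between Liv_OFF and Lung_OFF, 46.1% of 982 domains under 3000 bp, 46.6% of 1171 from there to under 5000 bp, 32.2% of 208 from there to under 10000 bp and 22.6% of 31 wider ones were called. Between Liv_OFF and Panc_OFF these shares were 54.5%, 51.6%, 42.8% and 35.5%, and for restoration in the pancreas 9.78%, 8.88%, 4.33% and 0%. Distance from the start site made less difference, with 45.1% of domains at 10 to 50 kb and 44.4% of those at 50 to 200 kb called between liver and lungs. These shares are descriptions without a test of their own.

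**Figure D5:**
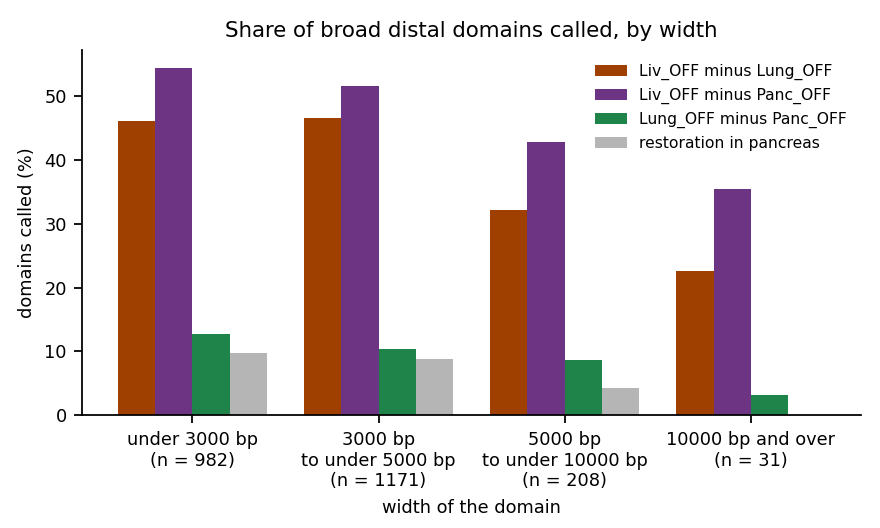
Bars give the percentage of domains called in 4 comparisons for 4 classes of width, with the number of domains below each class. The shares of the widest class (31 domains) are the lowest in each comparison, at 22.6% between Liv_OFF and Lung_OFF and 0% for restoration in the pancreas.

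The least variable domains, by the range of the 6 group means, were nearest Sept9, Ano6 and Smad7, the last an inhibitor of TGF-beta signaling. Domains and the promoter of their nearest gene were compared where a peak lay at the promoter, no more than 1000 bp from the start (2166 domains, 1449 promoters). Log2 differences between Liv_OFF and Lung_OFF had a Pearson correlation of 0.39 across these pairs, in the same libraries, with an SD of 0.93 for domains and 0.61 for promoters. Of 974 called domains, the promoter was called the same way in 281, the opposite way in 49 and not at all in 644. For restoration in the pancreas, 18 of 189 called domains had a promoter called the same way and none the opposite way.

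Sequence features were read as matches to short consensus letters on both strands, which are descriptions and not binding sites. They were TGANTCA for AP-1, TGTGGTT for RUNX, GGGTGNGG for KLF, CCGGAAG for ETS, ACATTCC for TEAD, TGTTTAC for FOX, CAAAGTCC for HNF4, AGATAA for GATA and GTCTAGAC for SMAD, and the letters of different families were not kept from overlapping. In the central 200 bases, an AP-1 match lay in 10.5% of domains, against 28.1% of all peaks and 31.1% of narrower distal peaks, whose center is closer to their summit. RUNX matches lay in 5.31% (7.91% of all peaks), KLF in 7.69% (8.09%), ETS in 1.38% (1.68%), TEAD in 3.18% (4.90%), FOX in 3.26% (4.41%), HNF4 in 0.962% (1.58%), GATA in 11.5% (11.8%) and SMAD in 0% (0.234%).

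Over whole domains, AP-1 matches numbered 0.487 per kilobase in those higher in Liv_OFF than in Lung_OFF, 0.813 in those lower there and 0.566 in those not called. Among all peaks the values were 0.546 and 1.39 for higher and lower. KLF matches numbered 0.592 and 0.497 per kilobase in domains higher and lower in the liver, and 0.614 in those not called. In the central 200 bases, a KLF match lay in 6.31%, 7.25% and 8.49% of these. No lean of KLF matches to the liver is read from these values. RUNX matches numbered 0.265, 0.335 and 0.285 per kilobase, GATA matches 0.614, 0.647 and 0.576, and TEAD matches 0.187, 0.185 and 0.182. In the 192 domains that fell on restoration in the pancreas, AP-1 matches numbered 0.398 and KLF matches 0.685 per kilobase, beside 0.589 and 0.588 over all domains. Of the windows shown above, AP-1 matches lay in those of Chn1 and Cdc25a, and KLF matches in those of Rnf220 and Efhd2.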

How the data were processed

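ATAC-seq values of 16 libraries of mouse tumor cells, each from its own mouse, were taken from the table deposited by the authors. Per the labels and the study's methods, the authors trimmed reads, used Bowtie2 for alignment (mm10) and MACS2 for peak calling, removed blacklisted regions, merged peaks within 500 bp into 1 atlas and counted reads per peak with featureCounts. The deposited unit is signal, as normalized counts per peak (reads divided by DESeq2 size factors), so that wide peaks hold more counts. Merging also joins neighboring peaks, which sets the width of a domain. Tn5 offset, removal of duplicates and the filter behind the table are not given in the sources used here.

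Multiplying by each library's step gave whole reads for 100% of values (tolerance 0.1). The 1 mitochondrial row (1.43% to 3.56% of reads) was left out, leaving 136630 nuclear peaks. Peak midpoints were assigned to the nearest of 45078 protein-coding starts (GENCODE vM21 basic), and sequences came from GRCm38.p6. Columns named DoxON were read as Smad4 off. For the lungs the column names give 15 days of withdrawal and the labels 14. Whether coordinates count from 0 or 1 is not stated, and they were used as written.

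Main tests used limma 3.58.1 (R 4.3.3; trend, robust) on log2(normalized count + 1) with 6 group means and Benjamini-Hochberg adjustment over all nuclear peaks. Fold changes of low peaks are understated on this scale. Calls needed an absolute log2 fold change of 0.58 and an adjusted p of 0.1. edgeR 4.0.16 (quasi-likelihood) and DESeq2 1.42.0 on recovered reads were alternatives. Named domains were the 10 widest, those with the smallest p-values per comparison and direction (4 between organs, without overlap of libraries, and 3 on restoration), the 8 genes with the most domains, the widest examples of each gene list, and the domains at the width limit. Members and lists were chosen with earlier results of these data known. Deviations of same-numbered libraries from their group means correlated at 0.49, 0.12 and 0.21 in the lungs, at -0.33, 0.03 and -0.33 in the pancreas and at 0.08 in the liver. Lung numbers alone were therefore taken to pair samples, a choice made from the tested data and not given in the labels. Scripts were tested on simulated data. Some items are not reported here.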

Additional observations from a re-analysis of the deposited data

Results flagged for a closer look

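With the lung replicate numbers as a block, 159 domains were called for a difference in the effect of restoration between lungs and pancreas (149 more positive in the lungs, 10 more negative; limma, adjusted p of at most 0.1). This fit tests the difference itself, but the block was chosen from the same data and for the lungs only. Its adjusted p-values can therefore be too small. Without the block limma and edgeR called none and DESeq2 called 94, and limma with a block in every organ called 26. Groups of 2 or 3 mice were too small to look for single outlying samples.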

How the results depend on the processing

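Of 372 counts, shares and correlations recomputed under alternatives, 309 stayed within the limit set for each. For counts the limit was 1.5 times the reported count, and counts of 0 in both fits were taken as unchanged. Shares were held to the confidence interval of the reported share, and the correlation with promoters to its own spread. Of 1157 recomputed values of named domains, none changed sign and 41 fell short of the thresholds, and 31 of 43 named differences were called under every alternative. Only domains named for the smallest p-values between organs or on restoration were recomputed. With thresholds of 1 and 0.05, calls were 557 (Liv_OFF minus Lung_OFF), 696 (Liv_OFF minus Panc_OFF), 87 (Lung_OFF minus Panc_OFF), 339 (Liv_ON minus Lung_ON), 792 (Liv_ON minus Panc_ON), 259 (Lung_ON minus Panc_ON), and on restoration 42 in the pancreas, 7 in the liver and 9 averaged over organs. Calls on restoration in the liver were 53 with TMM factors, 3 with only the groups compared, 18 with the replicate block and GC correction, 13 with edgeR and 95 with DESeq2. In the lungs they were 0 with only the groups compared and 0 with the replicate block, with or without GC correction, 3 with the block in the lungs only, 4 with that block and GC correction, and 18 with DESeq2. For lungs minus pancreas there were 26 with the replicate block, 159 with the block in the lungs only, 135 with GC correction added and 94 with DESeq2, which called 1 domain when liver and lungs were compared and 3 when liver and pancreas were compared. The share called between liver and lungs was 40.8% of domains of at least 3500 bp, 48.1% of those of at least 2000 bp and 47.1% with starts of all gene types, and the share called on averaged restoration was 1.21% and 4.28% at these widths. Liver-high domains numbered 309 with quantile normalization, an alternative added after seeing the data, as were classes with TMM factors or without distal chromosome 6, shares without repeat-rich or sparse domains, and the promoter comparison with quantile normalization. The cause of these changes was not tested. Without 1 library at a time, calls ranged from 898 to 1179 (Liv_OFF minus Lung_OFF), 1179 to 1247 (Liv_OFF minus Panc_OFF), 139 to 352 (Lung_OFF minus Panc_OFF), 413 to 899 (Liv_ON minus Lung_ON), 1081 to 1369 (Liv_ON minus Panc_ON) and 614 to 957 (Lung_ON minus Panc_ON). On restoration they ranged from 26 to 265 (pancreas), 1 to 75 (liver), 0 to 3 (lungs), 50 to 130 (averaged), 0 to 223 (lungs minus pancreas), 0 to 0 (liver minus lungs) and 0 to 0 (liver minus pancreas). Where 1 liver sample remained, it was assumed to vary like the other groups. Groups of 2 or 3 mice limit what could be called.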
